A study of Mus musculus with 2 samples.

Results

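The p53 transcription factor, its inhibitors Mdm2 and Mdm4, and 7 of its direct target genes were examined in cultured fibro-adipogenic progenitors (FAPs), the mesenchymal cells of skeletal muscle that can become adipocytes. The 10 genes were chosen by name, as Trp53, Mdm2, Mdm4, Cdkn1a, Ccng1, Eda2r, Phlda3, Zmat3, Trp53inp1 and Aen, and targets of the BCL2 family were left out. All 10 were found among the 26082 genes of the series. The study sequenced the RNA of primary wild-type mouse FAPs that had been transfected with a TGFBR3 overexpressing plasmid or with empty vector, with 1 library for each. Both cultures were under adipogenic induction with insulin at 10 μg/ml, dexamethasone at 0.25 μM and IBMX at 0.5 mM in DMEM that held FBS at 20%, and the methods give an exposure of up to 3 days. The mice of the study were C57BL/6 at an age of 6 to 8 weeks, the cells were sorted from digested hind limb muscle, and the number of animals behind each library is not given in the sources used here. The plasmid was introduced by transfection, and the share of cells that took it up is not given in the sources used here. The libraries are called OE and control below, after their labels.

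The p53 protein is made all the time and is held at a low level by Mdm2, a ubiquitin ligase that marks it for degradation, and by Mdm4, a relative of Mdm2 that covers its activation domain. When a cell is stressed, for example by DNA damage, p53 escapes both, binds response elements near its target genes and raises their transcription. Mdm2 is itself one of these targets, so that p53 feeds its own inhibitor. In mesenchymal cells p53 is known for arresting the cell cycle and for holding back adipocyte differentiation. Most of this control acts on the p53 protein, which RNA sequencing does not measure.

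A p53 response element is built from 2 half-sites of 10 bases with the consensus RRRCWWGYYY and so the core CWWG. Here R is A or G, W is A or T, and Y is C or T. The target genes were chosen as known direct targets of p53, so matches in them do not test that choice. The elements below are shown because p53 acts on its targets through such sequences. They were searched for with no spacer between the half-sites and with the C and G of both cores kept, and up to 3 of the other bases could depart from the consensus, a limit set after the first matches were seen. The consensus reads the same on both strands, so each match counts for both. The search covered RefSeq start windows of GRCm38.p6, which run from 250 bases before to 50 bases after a gene's start and are held for 8 of the 10 genes, and the GENCODE M21 transcripts of all 10. The core letters are in capitals. In the core CCTG of Ccng1 and the core CACG of Mdm2 a middle base departs from the consensus.

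Cdkn1a: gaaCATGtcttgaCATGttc

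Ccng1: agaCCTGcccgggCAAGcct

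Zmat3: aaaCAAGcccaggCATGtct

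Mdm2: ggtCAAGttgggaCACGtcc

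Aen: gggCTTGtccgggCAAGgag

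Trp53: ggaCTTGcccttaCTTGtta

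The Zmat3 element, at chr3:32364331-32364350 on the minus strand, matched all 20 positions and lay in intron 1, where it was read from a transcript that retains the intron. The Cdkn1a element, at chr17:29090928-29090947 on the plus strand, matched 19 positions and lay just before an upstream start of the gene. The Ccng1 element, at chr11:40755462-40755481 on the minus strand, also matched 19 positions, upstream of the start. The Mdm2 element, at chr10:117710105-117710124 on the minus strand, matched 17 positions and lay in intron 1 of the full-length transcript, the place of the p53-responsive second promoter that Mdm2 is known for. The elements of Aen (chr7:78895937-78895956, plus strand, exon 1) and Trp53 (chr11:69580284-69580303, plus strand, upstream) also matched 17 positions. Of the start windows of all genes, 1.38% held a match with up to 3 departures and 0.067% one with a single departure. Among pieces of transcripts of the same 300 bases, 1.2% held a match with up to 3 departures and 0.00191% a full match. A start window with a match was found for 4 of the 8 genes that have a window. This count is per gene, and Mdm4, Cdkn1a and Aen have 2 windows each, whereas the shares above are per window or piece. The searched letters were not in the windows or transcripts of Mdm4, Eda2r and Phlda3, or in the transcripts of Trp53inp1. These matches are a description of the sequence, and binding of p53 was not measured in this series.

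The deposited counts summed to 62321027 in the OE library and 83779203 in the control library. Levels are given as FPKM, which are counts scaled by gene length and library total, and intervals are exact 95% intervals that cover counting error only. Differences are given as the log2 ratio of (FPKM + 1), OE over control, which understates the difference of low genes, and since each condition has a single library, no difference was checked against replicates and no test was possible. The overexpressed gene itself, Tgfbr3, stood at 36.9 FPKM in the OE library and 35.1 FPKM in the control library (log2 ratio 0.07, or −0.06 relative to the shift given next), so that the deposited RNA values do not show the overexpression, and every direction below is that of the labels. An exchange of the labels would turn the sign of every ratio and was not tested. The species of the plasmid's coding sequence, and so whether it would be counted as mouse Tgfbr3, is not given in the sources used here. Over the 10626 genes that reached 1 FPKM in each library the log2 ratio had a median of 0.13, and a value is called centred once this shift has been subtracted. Genes that averaged 1 FPKM or more over the libraries, 11213 in all, are called expressed genes. FAP markers were abundant, with a summed FPKM of 1734 and 1945 over 8 genes, although Lum was at 0.27 and 0.03 FPKM. These markers differed in direction, with Ly6a at 1013 FPKM in the OE library and 706 in the control library, Col1a1 at 467 and 870, and Col3a1 at 95.8 and 199. Adipocyte markers summed to 47.3 and 85.2 FPKM over 6 genes, of which Cfd and Adipoq were more than 2-fold lower in the OE library (log2 ratios −1.29 and −1.07) and Pparg was above 0 (0.29). None of the markers of macrophages, muscle cells or endothelial cells that could be read exceeded 1.13 FPKM in either library, and the macrophage markers Adgre1 and Tyrobp had no counts. The muscle cell markers read were Myog, Des and Acta1, since Pax7, Myf5 and Myod1 were not among the genes compared. The part of the adipocyte share in the results below was not tested, and in these bulk libraries fewer cells of a type and less RNA per cell cannot be told apart.

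All 10 genes were detected well above the floor of 3 counts, from 1987 counts for Eda2r in the control library to 62128 counts for Cdkn1a in the OE library. The 10 genes were chosen with earlier results of these data known, so the shares set side by side here are descriptions and no test. Of the 10 genes, 9 had a log2 ratio above 0, against 63.1% of the expressed genes, and the same 9 were above 0 when centred, against 51.3%. Their median was 0.72, beside 0.14 over the expressed genes and 0.03 over all genes. At the 1.5-fold level 6 of the 10 genes were higher in the OE library (Mdm2, Eda2r, Trp53inp1, Ccng1, Mdm4 and Cdkn1a), against 13.3% of the expressed genes. At the 2-fold level only Mdm2 was higher on the main scale, against 1.41% of all genes and 3.14% of the expressed genes. No member was 2-fold lower, against 0.475% and 1.03%. By the plain ratio of FPKM, Mdm2, Eda2r, Trp53inp1 and Mdm4 were at least 2-fold higher, against 6.56% of the expressed genes. The plain ratio centred on its own median left Mdm2 and Eda2r, against 4.34% of the expressed genes.

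**Figure D1:**
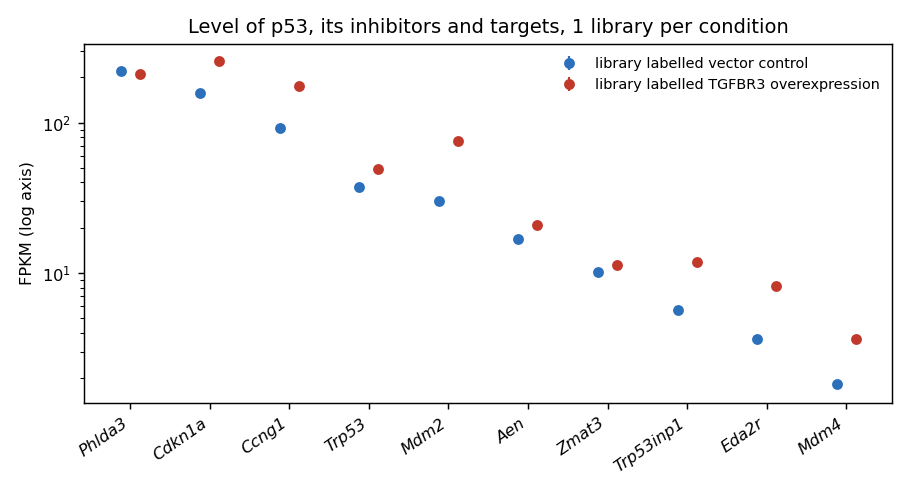
FPKM of each gene on a log axis in the library labelled vector control (blue) and in that labelled TGFBR3 overexpression (red), 1 library each; bars are exact 95% Poisson intervals of the counts, mostly smaller than the points. Phlda3 is the only gene whose red point lies below the blue, at 209 against 219 FPKM, and Mdm2 passes Trp53 in the OE library.

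Trp53 encodes p53 itself (ENSMUSG00000059552, chr11:69580359-69591873 of mm10, plus strand). Its FPKM was 48.8 in the OE library and 37.1 in the control library, with 13406 counts in the OE library and 13859 in the deeper control library. Trp53 RNA was higher in the OE library by a log2 ratio of 0.39 (95% CI 0.36 to 0.42), a centred 0.26, which is less than that of 4 of the 7 targets. A larger ratio was found in 26.0% of expressed genes. The exons share 10.2% of their 31-base words with other transcripts, mainly with the pseudogene Trp53-ps, which was itself low at 1.96 and 1.42 FPKM.

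Mdm2, the ubiquitin ligase for p53 (ENSMUSG00000020184, chr10:117688875-117710758, minus strand), showed the largest difference of the 10 genes. It had 26058 counts in the OE library and 14063 in the control library, although the control library was the deeper one. The FPKM was 75.6 (95% CI 74.6 to 76.5) and 29.9 (95% CI 29.4 to 30.4), a plain ratio of 2.52. The log2 ratio was 1.31 (95% CI 1.28 to 1.34), and only 182 expressed genes, or 1.62%, had a larger one. In the control library Mdm2 RNA was less abundant per length than Trp53 RNA, with a ratio of 0.81, and in the OE library it was more abundant, with a ratio of 1.55. After removal of the GC trend described below, Mdm2 stood at 0.99, just under 2-fold. Its transcripts start from either of 2 promoters, and the deposited counts per gene do not separate them.

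Mdm4, which binds p53 without degrading it by itself (ENSMUSG00000054387, chr1:132959484-133030561, minus strand), was the least abundant of the 10 genes in both libraries. Its FPKM was 3.66 against 1.82, from 3678 and 2496 counts. The log2 ratio was 0.72, and 1.01 (95% CI 0.93 to 1.08) by the plain ratio, where the added 1 does not damp a low gene. Mdm4 was also among the members that moved most with the corrections, at 0.38 with the GC trend removed and 0.39 with the trend over exon length removed. Of its 31-base words, 13.8% occur in other transcripts, the largest part of them in the pseudogene Mdm4-ps, which had 4 counts and none. Both inhibitors of p53 were therefore higher in the OE library, and the ratio of Mdm2 to Mdm4 in FPKM was 20.6 in the OE library and 16.5 in the control library.

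Cdkn1a encodes p21, the inhibitor of cyclin-dependent kinases through which p53 arrests the cell cycle (ENSMUSG00000023067, chr17:29090976-29100727, plus strand). It was the most abundant of the 10 genes in the OE library, at 258 FPKM against 157, from 62128 and 51608 counts. Its RNA was thus higher in the OE library, with a log2 ratio of 0.71 (95% CI 0.69 to 0.73), and 0.64 with the GC trend removed, the second highest of the 10 genes on that scale. Its exons overlap a gene model on the opposite strand, AC167363.2, and the sources used here do not state whether the counting used strand.

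Ccng1 encodes cyclin G1, which recruits a phosphatase to Mdm2 (ENSMUSG00000020326, chr11:40748552-40755311, minus strand). Its FPKM was 176 in the OE library and 92.5 in the control library, and the log2 ratio was 0.92 (95% CI 0.90 to 0.94). Eda2r, the receptor of ectodysplasin A2 in the TNF receptor superfamily (ENSMUSG00000034457, chrX:97333840-97377216, minus strand), was much scarcer, at 8.15 and 3.65 FPKM. Its log2 ratio was 0.98 (95% CI 0.91 to 1.04), so that the counting interval reached past 2-fold, and the plain log2 ratio was 1.16. Trp53inp1, a nuclear protein that promotes apoptosis and autophagy (ENSMUSG00000028211, chr4:11156431-11174379, plus strand), was at 11.9 and 5.66 FPKM. Its log2 ratio was 0.95 (95% CI 0.90 to 1.01), and the plain log2 ratio was 1.07. These 3 targets stood close together on the main scale, where their counting intervals overlap. Ccng1 RNA was far more abundant than that of the other 2, which the added 1 damps more. On the plain scale Ccng1 was at 0.92 (95% CI 0.90 to 0.95), below the intervals of Trp53inp1 (1.01 to 1.13) and Eda2r (1.08 to 1.24).

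Aen, Zmat3 and Phlda3 differed less. Aen, a nuclease of apoptotic DNA breakdown (ENSMUSG00000030609, chr7:78895854-78911209, plus strand), was at 20.96 and 16.78 FPKM, with a log2 ratio of 0.30 (95% CI 0.26 to 0.35). Zmat3, an RNA-binding zinc finger protein (ENSMUSG00000027663, chr3:32334792-32366014, minus strand), was at 11.3 and 10.2 FPKM. Its log2 ratio of 0.14 (95% CI 0.10 to 0.18) is that of the median expressed gene, and 50.1% of expressed genes had a larger one. Phlda3, which keeps the kinase Akt from the membrane (ENSMUSG00000041801, chr1:135766119-135769136, plus strand), was the most abundant of the 10 genes in the control library, at 219 FPKM, and stood at 209 in the OE library. The log2 ratio was −0.06 (95% CI −0.09 to −0.04), or −0.19 when centred, and it was 0.18 with the GC trend removed and 0.01 with the length trend removed, so that its direction depends on the correction. The 1 full match to the response element, in Zmat3, belonged to a gene at the median ratio. The matches at 19 positions belonged to Cdkn1a (log2 ratio 0.71) and Ccng1 (0.92). Eda2r, at 0.98 and at 0.53 with the GC trend removed, had no match in the start windows and transcripts searched. A link between element and ratio was not tested.

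**Figure D2:**
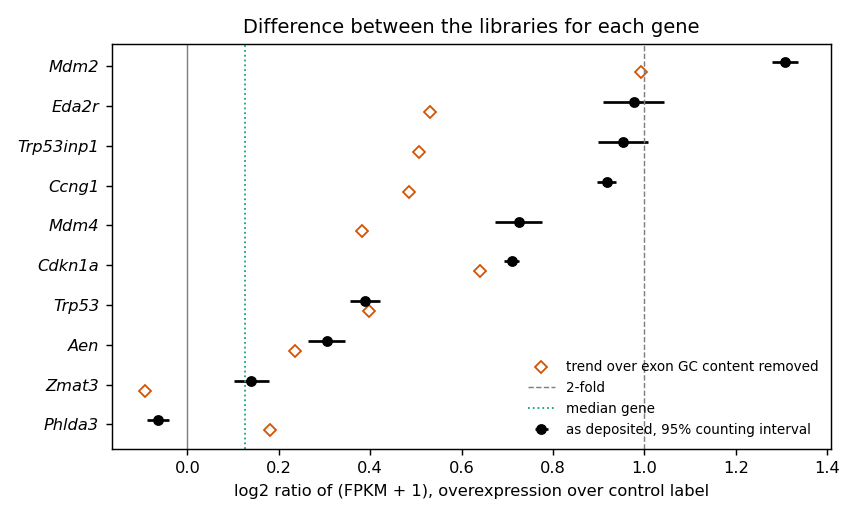
Log2 ratio of (FPKM + 1) for each gene, with the 95% counting interval (black), and the same value after removal of the trend over exon GC content (open diamonds); the dotted line is the median gene at 0.13 and the dashed line 2-fold. Mdm2 lies to the right of the other genes in both, at 1.31 and 0.99, and the diamonds of the other genes lie between −0.09 and 0.64.

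To ask whether Mdm2 moved with the other targets, its difference was set against theirs. The median log2 ratio of the 7 targets was 0.71, and Mdm2 was above it by 0.60, a difference in which the scaling of the libraries nearly cancels. Mdm2 exceeded each of the 7 targets, by 0.33 over Eda2r on the main scale and by 1.37 over Phlda3. On the plain scale the excess over Eda2r was 0.18 (95% CI 0.09 to 0.26) and over Trp53inp1 0.26 (95% CI 0.20 to 0.33), both from a normal approximation to counting error. The ratio of Mdm2 to Ccng1 was 0.43 in the OE library and 0.32 in the control library, a plain log2 change of 0.41. Against Cdkn1a the ratio was 0.29 and 0.19, a change of 0.62. Against Aen, Zmat3 and Phlda3 the plain log2 changes were 1.01, 1.18 and 1.40. Mdm2 thus had the same direction as 6 of the 7 targets and on the main and plain scales was nearest in size to Eda2r and Trp53inp1. With the GC trend removed its nearest target was Cdkn1a (0.64 beside 0.99), and with the length trend removed Ccng1 (0.80 beside 1.19). As a set, the ratios of the targets differed by more than counting error between these libraries. Their spread could not be set against that between cultures, and it went with exon GC content, as described below.

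The order of the levels changed at 3 places. In the control library the order from high to low was Phlda3, Cdkn1a, Ccng1, Trp53, Mdm2, Aen, Zmat3, Trp53inp1, Eda2r and Mdm4. In the OE library Cdkn1a passed Phlda3, Mdm2 passed Trp53 and Trp53inp1 passed Zmat3. The counting intervals of neighbors in the order did not overlap in either library, whereas the spread between cultures is not known.

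The GC content of the exons moved with the differences, and its part in them was not tested beyond the correction given here. Over the expressed genes, the median log2 ratio went from 0.45 in the lowest of 20 GC bins to −0.25 in the highest. The members range from 38.6% GC in Trp53inp1 to 61.8% in Phlda3, around a median of 50.0% over the expressed genes. Trp53inp1, Eda2r and Ccng1, which were near 2-fold, have the lowest GC contents of the 10, from 38.6% to 40.8%. Across the 10 genes the Spearman correlation of GC content and log2 ratio was −0.76 (n = 10 genes that share both libraries, given as a description). With the trend removed, Mdm2 was at 0.99, Cdkn1a at 0.64, Eda2r at 0.53, Trp53inp1 at 0.51 and Ccng1 at 0.48. On this scale 9 of the 10 genes were above 0, against 50% of the expressed genes, and none was 2-fold higher, against 2.13%. The SD over the 10 genes narrowed from 0.43 to 0.29. Zmat3 was then below 0, at −0.09. Mdm2 has a GC content of 45.1%, and 2.16% of the expressed genes had a larger corrected value.

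**Figure D3:**
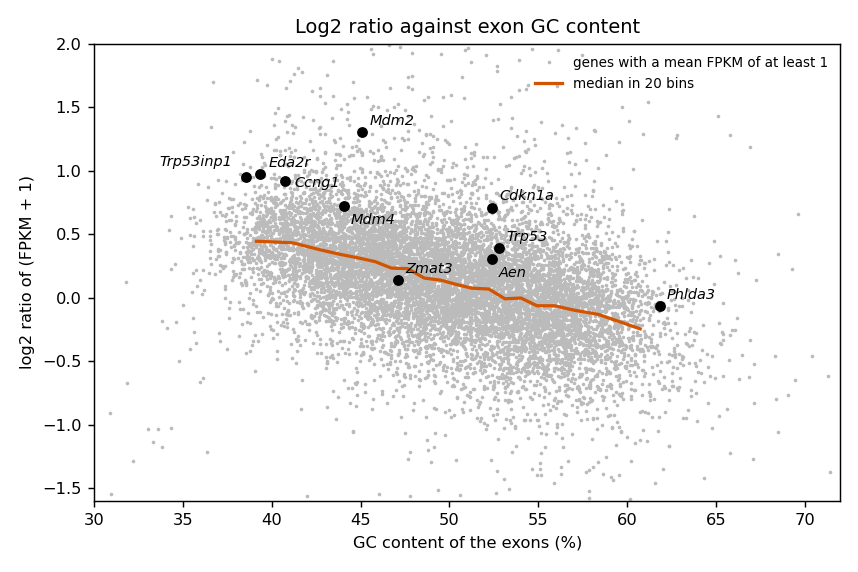
Log2 ratio of (FPKM + 1) against the GC content of the exons (%) for expressed genes (gray), with their median in 20 bins (orange line) and the 10 genes (black); 98 of the 11207 genes lie outside the axes. Zmat3 lies below the line, Phlda3 just above it, and Mdm2 farthest above.

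Genes beside Mdm2 on chromosome 10 were examined as a measure of its locus. Of the 3 protein-coding genes on each side in the annotation, Lyz1 was not analysed here. Slc35e3, Nup107 and Cpsf6 had log2 ratios of 0.21, 0.04 and 0.14, all near that of the median gene. Rap1b, which encodes a small GTPase, was higher, at 85.3 against 53.9 FPKM and a log2 ratio of 0.65, at a distance of 103 kb. Cpm, a carboxypeptidase gene that ends 1.52 kb from Mdm2, had 79 counts against 28, or 0.19 against 0.05 FPKM. The log2 ratio of Cpm was 0.18 with the added 1 and 1.93 without it.

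**Figure D4:**
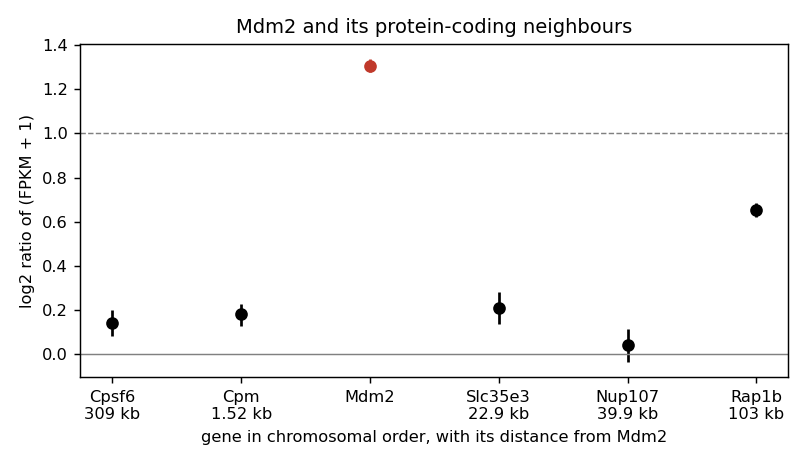
Log2 ratio of (FPKM + 1) with the 95% counting interval for Mdm2 (red) and the protein-coding genes around it (black), in chromosomal order with the distance of each from Mdm2. Mdm2 is at 1.31 and the others lie between 0.04 and 0.65.

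The wider p53 pathway was followed in lists compiled from general knowledge, with earlier results of these data known. Of 32 other p53 targets, 22 had a log2 ratio above 0, against 14254 of all 26082 genes. Of the 32 targets, 2 were 2-fold higher, against 1.41% of all genes, and none was 2-fold lower, against 0.475%. Of the 29 expressed ones, 20 were above 0, a share close to the 63.1% of all expressed genes, and their median was 0.34 beside 0.14. When centred, 19 of the 29 were above 0, against 51.3%. Gdf15, a secreted stress cytokine, was at 38.0 and 12.4 FPKM, with a log2 ratio of 1.54 (95% CI 1.47 to 1.61), larger than that of Mdm2. Plk2, a polo-like kinase, was at 62.8 and 30.5 FPKM, a log2 ratio of 1.02, and fell short of 2-fold when centred (0.89). Polk, a DNA polymerase that copies past lesions, stood at 0.99. The lowest were Siva1 (−0.59), Ddit4 (−0.48) and Dram1 (−0.47), which act in apoptosis, mTOR inhibition and autophagy.

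Among 25 regulators of p53, 19 had a log2 ratio above 0, against 14254 of all 26082 genes. None of the regulators was 2-fold higher or lower, against 1.41% and 0.475% of all genes. The 20 expressed regulators were close to the whole library, with 14 above 0, against 63.1% of expressed genes, and a median of 0.19 beside 0.14. Ppm1d, a phosphatase that switches p53 off and is also its target, had the highest log2 ratio at 0.75, from 861 counts in the OE library and 581 in the control library. Usp7, which removes ubiquitin from p53 and Mdm2, was at 0.72, and the acetyltransferase Ep300 at 0.61. Cdkn2a encodes p19ARF, which binds Mdm2 and frees p53, as well as p16, and counts per gene do not separate them. It was lower in the OE library, at 101 and 135 FPKM, a log2 ratio of −0.41 (95% CI −0.45 to −0.37). Rpl11 (−0.35), Rpl5 (−0.15) and Rpl23 (−0.14), ribosomal proteins that also bind Mdm2, were below 0 too.

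Cell cycle genes that p53 is known to lower through p21 were mostly below the median gene. They were not mostly below 0 over the whole list, whereas 8 of the 14 expressed ones were below 0. Of 19 such genes, 11 were above 0 and 8 below, against 14254 and 8417 of all 26082 genes. The median of the 19 was 0.05, and none of them was 2-fold higher or lower, against 1.41% and 0.475% of all genes. Of the 14 expressed ones, 6 were above 0, against 63.1% of expressed genes, and their median was −0.09, or −0.22 when centred. When centred, 11 of these 14 genes were below 0, against 48.7% of expressed genes, and with the GC trend removed 12 of the 14 were. The genes under 1 FPKM that this leaves out, Bub1, Mki67, Mybl2, Cenpf and Cdc25c, were all above 0. Their log2 ratios ran from 0.05 to 0.34, and from 0.17 to 0.83 without the added 1, which damps them. With them included, 14 of the 19 were below 0 when centred, a scale on which the median of all 26082 genes was itself −0.10. Among the 14 expressed ones, the highest were Plk1 (0.28), Ccnb1 (0.23) and Top2a (0.23), and the lowest were Cdc20 (−0.40), Birc5 (−0.35) and Ccnb2 (−0.28). Cdc20, an activator of the anaphase-promoting complex, was at 9.07 and 12.3 FPKM.

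Relatives of the members that are not core p53 targets were taken as a contrast. Of the 13 relatives, 7 were expressed genes, and all 7 were above 0, against 63.1% of expressed genes. The median of the 7 was 0.19, and none of them was 2-fold higher or lower, against 3.14% and 1.03% of expressed genes. When centred, 5 of the 7 were above 0, against 51.3%. The CDK inhibitor Cdkn1b, a relative of Cdkn1a, was at 0.02, with FPKM values of 3.51 and 3.46. Ccng2, the relative of Ccng1, was at 0.19, and Trp53inp2, that of Trp53inp1, at 0.10. Phlda1 was at 0.37, above its relative Phlda3. Isg20, a nuclease gene related to Aen that interferon is known to induce, was the highest at 0.62, followed by Phlda1 and then Isg20l2 at 0.24. Of the p53 family, Trp63 had 2 counts in the OE library and 26 in the control library, and Trp73 had none in either, which allows up to 3 counts in each.

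**Figure D5:**
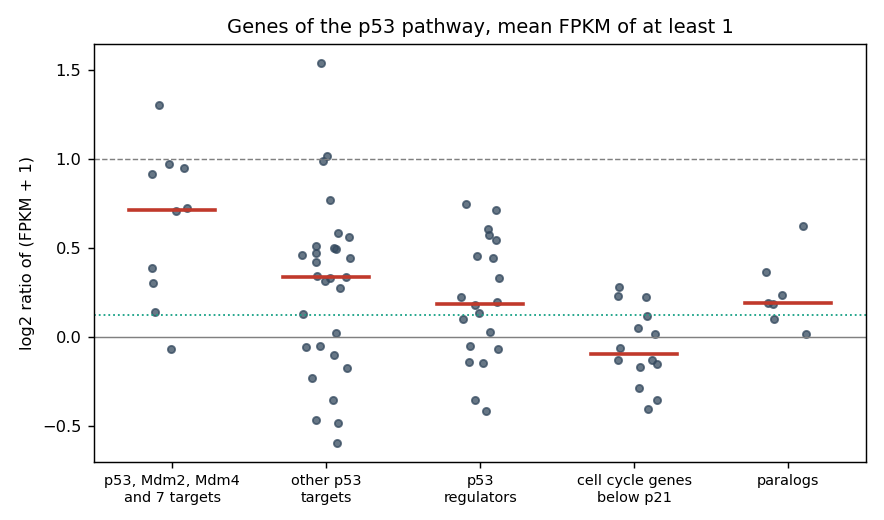
Log2 ratio of (FPKM + 1) of each expressed gene (points) and the median of each list (red bars); the dotted line is the median gene and the dashed line 2-fold. The medians go from 0.72 for the 10 genes to 0.34 for other p53 targets, 0.19 for regulators, −0.09 for cell cycle genes and 0.19 for relatives.

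Over the 2 libraries, the genes whose pair of FPKM values lay nearest to that of Mdm2, by Euclidean distance in log2 FPKM, were Plac8 (0.09), Ifi35 (0.16), Pgk1-rs7 (0.22), Serinc1 (0.25) and Plk2 (0.27). With 2 points per gene this likeness describes level and ratio alone.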

How the data were processed

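RNA of FAPs was sequenced as paired reads of 150 nt, 1 library per condition. The authors mapped trimmed reads to mm10 with STAR (version 2.5.3a) and counted them per gene with FeatureCounts (version 1.5.1) according to the methods, while the submitters' processing notes name cutadapt 1.9, HISAT2 2.2.1, StringTie 2.1.6, edgeR and DESeq2. The annotation release is not given in the sources used here. The authors deposited a raw count per gene, and the deposited FPKM values are those counts scaled by gene length and a library total, rounded to 2 decimals. A total built from other reads would move every gene of that library by 1 factor.

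Libraries were compared by the log2 ratio of (FPKM + 1). Exact 95% intervals (Clopper-Pearson) were computed from the counts on a gene's share of the counts of both libraries, put on the scale of the log2 ratio, and exact Poisson intervals of levels. Reads are not independent molecules unless molecular identifiers were used, so the intervals are lower limits of the error. Count models need replicates, and none was run. Python 3.11.15, numpy 2.4.6, scipy 1.17.1 and pandas 2.3.3 were used. Coordinates, exon lengths and GC content came from GENCODE M21 on mm10, which holds 99.7% of the gene identifiers, and trends over GC content and exon length were removed as the median of 20 bins. The calculations were tested on simulated counts. The 10 genes and the lists were chosen with earlier results of these data known. Besides the 10 genes, the text names those past 2-fold and the 3 highest and 3 lowest of each pathway list, among genes averaging 1 FPKM or more, the neighbors of Mdm2, the 5 genes most like it and Tgfbr3. Genes named outside this rule, among them Rpl23, the p53 family and the pseudogenes, were chosen after their values were seen.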

Additional observations from a re-analysis of the deposited data

How the results depend on the processing

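The number of the 10 genes at least 2-fold higher or lower, which was 1, stayed at 1 under the filter on mean FPKM, centring, the sum without the 50 highest genes and the removal of the trend over exon length. It was 3 with a pseudocount of 0.1, 4 with 0.01, 4 by the plain ratio, 3 by CPM, 3 by CPM over protein-coding genes, 2 by the centred plain ratio, 0 with the GC trend removed and 6 at 1.5-fold. The log2 ratio of Mdm2 was 1.18 when centred, 1.18 by the centred plain ratio, 1.19 with the length trend removed and 0.99 with the GC trend removed, and under the other settings it stayed within its counting interval. Its excess over the median of the 7 targets was 0.51 with the GC trend removed and within 0.60 to 0.62 under the others. Over all genes, 369 were 2-fold higher and 124 lower. These numbers were 2061 and 798 with a pseudocount of 0.1, 4933 and 2750 with 0.01, 2926 and 1080 by the plain ratio, 638 and 197 by CPM, 2174 and 1304 by the centred plain ratio and 1685 and 608 at 1.5-fold. Centring left 275 higher and 195 lower. Where a trend over GC content or exon length was removed, the cause of the trend was not tested. The centred plain ratio and CPM over protein-coding genes were chosen after seeing the data. Trp53, Mdm2, Mdm4, Cdkn1a, Ccng1, Eda2r, Trp53inp1 and Aen were above 0 under all 12 settings, the main one included, while Zmat3 was above 0 under 9 and Phlda3 under 2, with ranges of −0.19 to 0.15 and −0.22 to 0.18. No paired analysis was possible because each condition has 1 library, and leaving out a replicate was not possible for the same reason. Depth did not limit the members, each of which had at least 1987 counts per library, but 1 culture per condition does.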
